A study of Mus musculus with 48 samples.

Results

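The comparison described here is that of brain hemispheres from mice given angiotensin II together with hydralazine with hemispheres from mice given vehicle. It uses 12 of the 48 libraries of the series, 6 in each group, chosen by their treatment and tissue labels. All mice were male wild type C57Bl6 animals. Both-drug mice carried an osmotic minipump that delivered 0.7 mg of angiotensin II per kg per day for 2 weeks, and they drank water with hydralazine at 50 mg/kg. Vehicle mice carried a pump with saline and drank water without the drug. Angiotensin II mice and mice given hydralazine alone, with 6 hemisphere libraries each, are used only where stated, and so are 12 hippocampal libraries of the both-drug and vehicle groups. The labels do not give the age of the mice or the day on which hydralazine was started, and blood pressure values were not analysed here. The both-drug group carries the disease state hypertension in its labels, so the labels do not say that the second drug had normalised pressure. A replicate is 1 library, and nothing in the labels says that each came from a separate mouse, so every p-value measures the spread between these libraries.

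Angiotensin II constricts vessels and acts on vessel walls, on the kidney and on brain regions that control pressure, chiefly through the AT1 receptor. Hydralazine relaxes arterial smooth muscle and lowers pressure without blocking that receptor, so both-drug tissue was exposed to angiotensin II in the presence of a vasodilator. In the brain, endothelial cells, mural cells and matrix make up the vessel wall, while immediate early genes in neurons and vessels are transcribed within minutes of activity, stress or growth factor signals.

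Of 54532 genes in the table, 15818 had at least 0.5 FPKM (fragments per kilobase of gene, scaled to library size) in at least 6 of the 12 libraries, and 13292 of these were protein coding. Values were compared as log2(FPKM + 0.5), a scale that understates differences of low genes. The libraries held 19.24 to 23.5 M reads in genes with both drugs and 15.77 to 20.65 M with vehicle. A single read on 1 kb of gene corresponds to 0.0399 to 0.0601 FPKM. Neurons, astrocytes and oligodendrocytes of the labelled tissue were represented. The filter was passed by all 20 excitatory neuron genes that the table holds, all 19 astrocyte genes and all 22 myelin genes. Both-drug replicate 6 and vehicle replicate 1 stood apart. Their distances from the centre on the first 3 principal components were 33 and 32.2, against 6 to 22.9 for the other libraries, and 7.22% of reads in vehicle replicate 1 were mitochondrial, against 5.89% to 6.65% in the other 11.

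No gene passed the test between both drugs and vehicle. With limma and Benjamini-Hochberg adjustment, 0 of 15818 genes had an adjusted p under 0.05 (0%), and the smallest adjusted p was 0.122, shared by 6 genes. An unadjusted p under 0.05 was found for 1398 genes (8.84%), of which 821 were higher with both drugs (5.19%) and 577 were lower (3.65%). The groups did not overlap for 90 genes (0.569%), with 48 higher (0.303%) and 42 lower (0.266%). Whatever the p, 52.4% of genes had a higher and 47.6% a lower estimate with both drugs. The differences were small: the median log2 difference was 0.006, the middle 90% of genes lay between -0.19 and 0.22, and 152 genes differed by more than 1.5-fold in either direction. On simulated data of this size, the same fit recovered 79% of genes changed 1.5-fold and 91% of those changed 2-fold, with 9 false calls. There 200 genes with a mean of at least 1 FPKM were changed, and the spread was drawn separately for each gene and library. Deviations that many genes of a library share, as in the libraries that stood apart, were not simulated. Fewer changed genes, with which the adjustment is stricter, were not simulated either. These rates therefore need not hold for the real libraries. The count of 0 depended on single libraries. Without vehicle replicate 1 the fit called 10 genes, 9 higher and 1 lower, and 2742 had an unadjusted p under 0.05. Without both-drug replicate 6 it called 0, and without both of these it called 4. It called 1 gene without both-drug replicate 1, which was Polr2k, and 1 without both-drug replicate 4, which was Edn1.

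**Figure D1:**
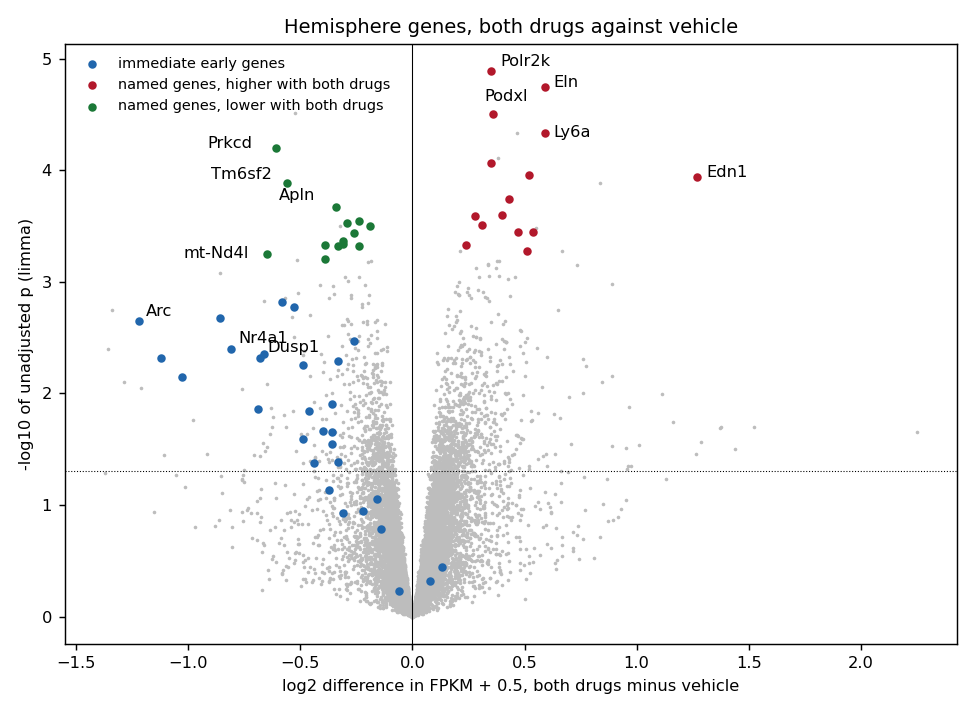
Log2 difference in FPKM + 0.5 between both drugs and vehicle (x axis) against -log10 of the unadjusted p of limma (y axis) for 15818 hemisphere genes, with a dotted line at an unadjusted p of 0.05. The 15 named higher genes are red, 14 named lower genes green and the 29 tested immediate early genes blue, and the blue points lie mostly left of 0.

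Eln, Podxl and Ly6a were among the 6 genes that shared the smallest adjusted p. In tissue RNA, fewer cells of a type and less RNA per cell cannot be told apart, so these values do not separate the number of vessel cells from the transcript in each. Eln encodes tropoelastin, the core protein of elastic fibres in artery walls (chromosome 5, 134702593 to 134747323, minus strand, GRCm38). Its lowest, median and highest values were 2.11, 2.77 and 2.97 FPKM with both drugs, against 1.28, 1.58 and 1.78 FPKM with vehicle. Every both-drug library lay above every vehicle library. The log2 difference was 0.59 ± 0.09 (SE), with an adjusted p of 0.122 in limma. Angiotensin II libraries held 2.19 to 3.99 FPKM of Eln. The log2 difference of both drugs from angiotensin II alone was -0.05, with a 95% interval of -0.29 to 0.19.

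The other elastic fibre genes did not share the size of the Eln difference. Of 13 tested members, 9 were higher and 4 lower, with a median log2 difference of 0.04, beside 0.006 over all genes. Eln alone had an unadjusted p under 0.05, beside 8.84% of all genes. Fbln1, a fibulin of elastic fibres and basement membranes chosen here after its value was seen, differed by 0.14, and Mfap4, a microfibril-associated protein, differed by 0.14. Against angiotensin II alone all 13 estimates were lower with both drugs, with a median of -0.11, beside 48.8% of all genes. That count rested on angiotensin II replicate 6, described below, since without it 7 members were higher and 6 lower with a median of 0.01. Of 21 collagen and basement membrane genes, 17 were higher and 4 lower, with a median of 0.04 and a range of -0.12 to 0.12, and none had an unadjusted p under 0.05. Hspg2, which encodes perlecan, had the smallest p of that list with a log2 difference of 0.12 ± 0.08.

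Of 30 endothelial genes tested, 21 were higher and 9 lower, and the median log2 difference was 0.08. An unadjusted p under 0.05 was found for 7 members, all higher, beside 5.19% of all genes. The groups did not overlap for 3, which were Podxl, Ly6a and Itm2a, beside 0.303% of all genes. Podxl encodes podocalyxin, a sialomucin of the luminal endothelial surface (chromosome 6, 31519488 to 31563981, minus strand). It had 8.62, 9.6 and 10.5 FPKM at its lowest, median and highest with both drugs, against 6.89, 7.22 and 8.29 FPKM with vehicle. The lowest both-drug library exceeded the highest vehicle library. Its log2 difference was 0.36 ± 0.06, adjusted p = 0.122 in limma, and its difference from angiotensin II alone was 0.01, with an interval of -0.13 to 0.15.

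Ly6a, a GPI-anchored surface protein of brain endothelium (chromosome 15, 74994877 to 74998031, minus strand), held 24.8, 32.0 and 33.5 FPKM with both drugs, against 16.6, 19.9 and 24 FPKM with vehicle. The groups came close but did not overlap. The log2 difference was 0.59 ± 0.10 with an adjusted p of 0.122 in limma, and it was 0.07 from angiotensin II alone, with an interval of -0.20 to 0.33. Itm2a, a membrane protein enriched in brain vessels, had another order of levels: 34.7, 39.7 and 46.3 FPKM with both drugs, against a mean of 30.5 FPKM with angiotensin II and 28.1, 32.4 and 34.3 FPKM with vehicle. Its log2 difference from vehicle was 0.30, and that from angiotensin II alone was 0.37, with an interval of 0.20 to 0.54 and an adjusted p of 0.676 in limma. Pecam1, a junctional adhesion molecule of all endothelium, averaged 4.42 ± 0.317 FPKM with both drugs and 3.53 ± 0.404 FPKM with vehicle (SD, n = 6 each). The tight junction gene Cldn5 averaged 47.0 ± 4.60 FPKM with both drugs and 44.8 ± 8.92 FPKM with vehicle (SD, n = 6 each), a difference smaller than the spread.

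The endothelial list mean by library overlapped between the groups, at 2.58 to 2.80 with both drugs and 2.48 to 2.74 with vehicle on the log2 scale, and vehicle replicate 1 was the highest vehicle library. Without that library the median difference of the 30 genes was 0.14. Of 16 mural cell genes, 10 were higher and 6 lower, with a median of 0.05. Acta2, the smooth muscle actin of arterioles, averaged 8.37 ± 1.65 FPKM with both drugs and 9.53 ± 2.69 FPKM with vehicle (SD, n = 6 each).

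**Figure D2:**
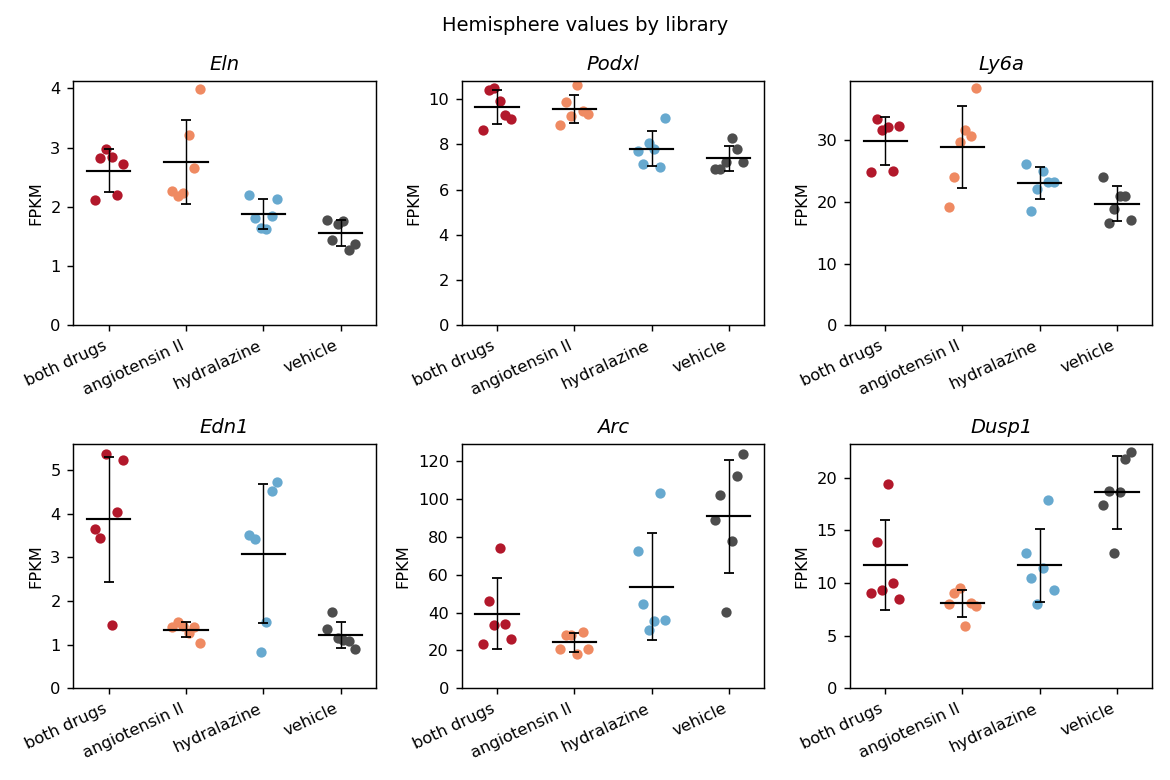
FPKM of Eln, Podxl, Ly6a, Edn1, Arc and Dusp1 (y axes, from 0) in each hemisphere library of 4 groups, from left both drugs, angiotensin II, hydralazine and vehicle; points are libraries, bars the mean and SD of 6. Eln, Podxl and Ly6a in both-drug libraries lie at the angiotensin II level and above all vehicle libraries, whereas Edn1 is near the vehicle level with angiotensin II and above it in 5 of 6 both-drug libraries.

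Among vasoactive genes, Edn1 stood apart. It encodes the precursor of endothelin-1, a vasoconstrictor peptide made by endothelium (chromosome 13, 42301476 to 42307990, plus strand). Its lowest, median and highest values were 1.45, 3.85 and 5.38 FPKM with both drugs, against 0.887, 1.13 and 1.75 FPKM with vehicle. In 5 of 6 both-drug libraries Edn1 exceeded every vehicle library, and replicate 4 alone lay inside the vehicle range. The log2 difference was 1.27 ± 0.23, a fold of 2.42, with an adjusted p of 0.157 in limma. Without both-drug replicate 4 the log2 difference was 1.49 and the adjusted p was 0.00142, so that 1 library decided the call.

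Edn1 had another order of levels across the 4 groups. It averaged 1.34 ± 0.166 FPKM with angiotensin II alone and 3.09 ± 1.59 FPKM with hydralazine alone (SD, n = 6 each). With hydralazine alone it was at or above 3.43 FPKM in 4 libraries and at or below 1.51 FPKM in the other two, so the libraries of that group fell in separate ranges. In the fit of all 24 hemisphere libraries, both drugs differed from angiotensin II alone by 1.17 on the log2 scale, with a 95% interval of 0.59 to 1.74 and an adjusted p of 0.848. Hydralazine alone differed from vehicle by 0.91, with an interval of 0.34 to 1.49 and an adjusted p of 1. No gene passed for hydralazine alone (0%). In both comparisons the groups with hydralazine had the higher values, and neither comparison passed after adjustment.

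The remaining genes of endothelin, nitric oxide and renin-angiotensin signalling lay near 0. Of 16 tested members, 10 were higher and 6 lower, with a median log2 difference of 0.01. Edn1 alone had an unadjusted p under 0.05, beside 8.84% of all genes. Agt, the precursor of the angiotensins that astrocytes make, averaged 47.0 ± 5.34 FPKM with both drugs and 46.5 ± 8.09 FPKM with vehicle (SD, n = 6 each). Ace, which converts angiotensin I, averaged 4.72 ± 0.47 FPKM with both drugs and 5.18 ± 0.781 FPKM with vehicle (SD, n = 6 each). The AT1 receptor gene Agtr1a was under the filter, at 0.172 to 0.282 FPKM with both drugs and 0.0738 to 0.299 FPKM with vehicle.

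Vegfa, a secreted growth factor for endothelium that hypoxia induces (chromosome 17, 46016993 to 46032369, minus strand), had 12.3, 15.5 and 19.1 FPKM with both drugs at its lowest, median and highest, against 17.3, 21.1 and 26.7 FPKM with vehicle. The groups overlapped only between 17.3 and 19.1 FPKM. Its log2 difference was -0.51 ± 0.12, with an adjusted p of 0.247 in limma, and it was -0.34 from angiotensin II alone, with an interval of -0.60 to -0.08. Apln, the apelin peptide ligand of the APJ receptor on endothelium, had 9.3, 10.3 and 12 FPKM with both drugs, against 11.7, 13.2 and 14.9 FPKM with vehicle, a log2 difference of -0.34 ± 0.07. In the hypoxia response list, 7 of 20 genes were higher and 13 lower, and the median was -0.04. An unadjusted p under 0.05 was found for 3 members, all lower, beside 3.65% of all genes. Besides Vegfa these were Bnip3 and P4ha1, a mitophagy receptor and a collagen hydroxylase, with differences of -0.11 and -0.38.

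Immediate early genes lay mostly below vehicle. Of 29 tested, 27 were lower and 2 higher with both drugs, the median log2 difference was -0.40, and 21 had an unadjusted p under 0.05, all lower, beside 3.65% of all genes. No member passed after adjustment, and for none were the groups free of overlap. Against the same vehicle libraries, 27 of the 29 were also lower with angiotensin II alone (median -0.51) and with hydralazine alone (median -0.24). Lower values than in these vehicle libraries were therefore not particular to the both-drug group. Because the list was drawn up when lower values of such genes with angiotensin II were already known from libraries that include these vehicle samples, its counts are a description. Promoter sequence of 4 members that are followed below is shown because cyclic AMP response elements near the start are a known feature of this class. The 250 bases before the start are from RefSeq on GRCm38.p6, 5′ to 3′ on the gene's strand, with capitals marking each TGACG or its reverse complement CGTCA, which overlap where they form the palindrome TGACGTCA.
Dusp1 (chr17:26508473-26508722, minus strand): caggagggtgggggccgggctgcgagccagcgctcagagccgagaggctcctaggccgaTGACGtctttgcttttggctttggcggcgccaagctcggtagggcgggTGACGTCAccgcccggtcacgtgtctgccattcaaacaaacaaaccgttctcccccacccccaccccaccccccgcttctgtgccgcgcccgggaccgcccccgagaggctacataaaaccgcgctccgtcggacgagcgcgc
Junb (chr8:84978749-84978998, minus strand): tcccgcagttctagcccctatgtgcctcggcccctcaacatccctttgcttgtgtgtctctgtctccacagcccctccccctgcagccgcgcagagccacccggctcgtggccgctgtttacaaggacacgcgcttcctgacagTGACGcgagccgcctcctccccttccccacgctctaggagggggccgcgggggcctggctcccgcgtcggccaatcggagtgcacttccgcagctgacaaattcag
Nr4a1 (chr15:101266596-101266845, plus strand): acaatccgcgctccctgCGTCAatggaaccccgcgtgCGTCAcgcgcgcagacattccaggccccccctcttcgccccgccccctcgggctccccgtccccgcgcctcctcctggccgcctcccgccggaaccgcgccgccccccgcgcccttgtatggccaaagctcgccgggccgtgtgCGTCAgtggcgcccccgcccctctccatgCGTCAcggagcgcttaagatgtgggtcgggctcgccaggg
Btg2 (chr1:134079156-134079405, minus strand): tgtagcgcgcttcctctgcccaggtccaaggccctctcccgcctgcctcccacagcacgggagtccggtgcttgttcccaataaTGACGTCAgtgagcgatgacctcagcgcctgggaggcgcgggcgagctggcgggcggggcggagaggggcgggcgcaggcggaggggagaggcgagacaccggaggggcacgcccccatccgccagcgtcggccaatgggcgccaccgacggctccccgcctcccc
Dusp1 holds the palindrome 143 bases before its start and Btg2 holds it 166 bases before, while Junb has 1 TGACG and Nr4a1 has 4 on the reverse strand. Of 32851 mouse promoter windows of this length, searched on both strands, 17.8% hold TGACG and 1.55% the palindrome. Of the 23 immediate early genes with a window, 17 hold TGACG and 2 the palindrome. These matches describe letters only.

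Arc, a synaptic protein gene whose transcript follows neuronal activity (chromosome 15, 74669083 to 74672570, minus strand), had 23.3, 33.7 and 74.3 FPKM with both drugs at its lowest, median and highest, against 40.1, 95.4 and 124 FPKM with vehicle. The groups overlapped, but 5 of 6 vehicle libraries lay above every both-drug library. The log2 difference was -1.22 ± 0.31, a fold of 0.429, with an adjusted p of 0.331 in limma. Arc averaged 24.3 ± 4.99 FPKM with angiotensin II alone and 53.8 ± 28.4 FPKM with hydralazine alone (SD, n = 6 each). Junb, an AP-1 subunit, had 13.9, 18.8 and 30.9 FPKM with both drugs, against 19.6, 37.8 and 43.6 FPKM with vehicle, and a log2 difference of -0.86 ± 0.22. Vehicle replicate 3 was the lowest vehicle library for both genes, and both-drug replicate 4 was the highest both-drug library for both.

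Dusp1, the promoter of which is shown above and which encodes a phosphatase of MAP kinases, had 8.5, 9.67 and 19.4 FPKM with both drugs, against 12.8, 18.6 and 22.4 FPKM with vehicle. Only both-drug replicates 2 and 4 lay within the vehicle range. The log2 difference was -0.68 ± 0.20 with an adjusted p of 0.371 in limma. Nr4a1, an orphan nuclear receptor, had a difference of -0.81 ± 0.23, the kinase gene Sik1 one of -0.58 ± 0.15, the phosphatase gene Dusp5 one of -0.53 ± 0.14, and Btg2, an antiproliferative gene, one of -0.40 ± 0.15. The members above vehicle were Homer1 and Nptx2, named after their values were seen, at 0.13 and 0.08.

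By library, the mean of the 29 genes ran between 2.90 and 3.46 with both drugs, 2.76 and 3.22 with angiotensin II, 3.07 and 3.69 with hydralazine, and 3.11 and 3.94 with vehicle on the log2 scale. The ranges of the both-drug and vehicle groups overlapped through vehicle replicate 3. Against angiotensin II alone, 19 of the 29 genes were higher with both drugs and 10 lower, with a median log2 difference of 0.08, beside 51.2% of all genes higher. Without angiotensin II replicate 6 the counts were 17 and 12 and the median was 0.02. Summed choroid plexus genes were also lower with both drugs, and with the choroid plexus mean as a covariate the median of the immediate early genes was -0.32. It was -0.44 without vehicle replicate 1 and -0.37 without both-drug replicate 6. The time between handling and dissection is not in the labels, and its part in these values was not tested.

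**Figure D3:**
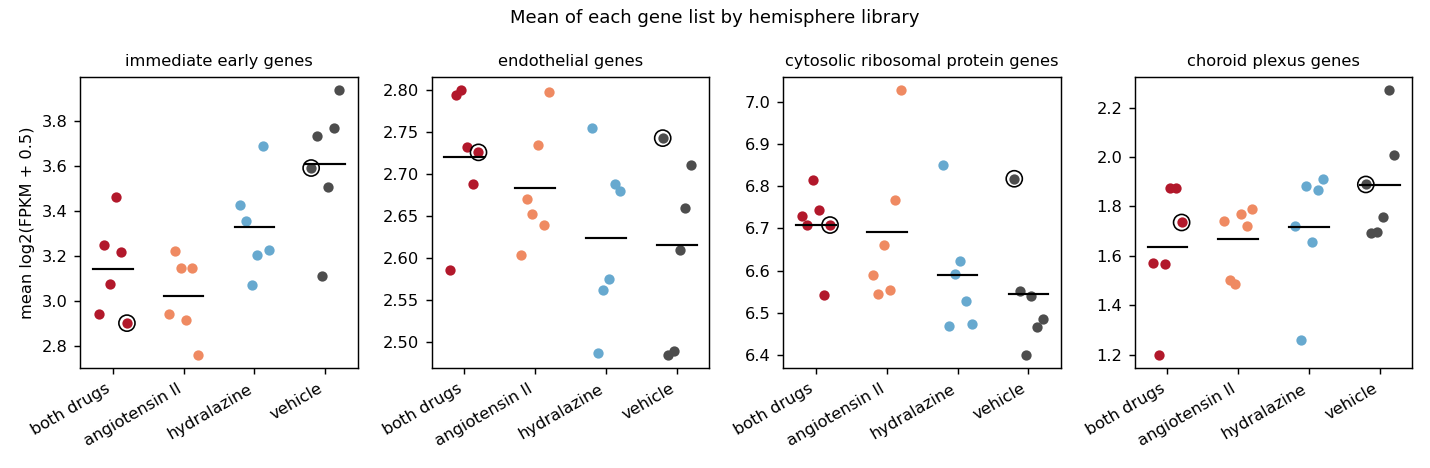
Mean log2(FPKM + 0.5) over 4 gene lists (y axes) in each hemisphere library, from left both drugs, angiotensin II, hydralazine and vehicle; points are libraries, bars group means, and circles mark both-drug replicate 6 and vehicle replicate 1. Immediate early genes lie at 2.90 to 3.46 with both drugs and 3.11 to 3.94 with vehicle, and vehicle replicate 1 is the highest vehicle library for ribosomal protein genes.

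In the fit of 24 hemisphere libraries, 12 of 15818 genes passed between angiotensin II and vehicle (0.0759%), and the question for these is what remains with hydralazine added. They were chosen on the angiotensin II and vehicle libraries, so their values against either group are not independent evidence. With both drugs 3 were higher and 9 lower than vehicle, each with an unadjusted p under 0.05, beside 5.19% and 3.65% of all genes. None of the 12 had an adjusted p under 0.05. Their median log2 differences were -0.32 for both drugs and -0.45 for angiotensin II, each against the same vehicle libraries. Eln, Podxl and Neat1 were the higher ones. Neat1, the long noncoding RNA that scaffolds paraspeckles, had 7.56, 9.16 and 10.2 FPKM with both drugs, a mean of 9.61 FPKM with angiotensin II, and 5.99, 7.05 and 7.85 FPKM with vehicle.

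Among the lower ones, the distance from angiotensin II alone differed by gene. For Kdm6b, a demethylase of histone H3 lysine 27, both drugs differed from angiotensin II by 0.09, with an interval of -0.05 to 0.23, and both-drug libraries held 4.51 to 5.92 FPKM, below the 5.95 to 7.82 FPKM of vehicle. Otud1, a deubiquitinase, was 0.10 above angiotensin II, with an interval of -0.08 to 0.28, and Adrb1, the beta-1 adrenergic receptor, was 0.10 above it. The intervals excluded 0 for 3 genes, all higher with both drugs than with angiotensin II: Dusp1 at 0.47 (0.08 to 0.85), Btg2 at 0.50 (0.15 to 0.85) and Msantd1 at 0.23 (0.04 to 0.42). Without angiotensin II replicate 6 these 3 values were 0.46, 0.42 and 0.26. For Arc the difference was 0.60, with an interval of -0.04 to 1.24. None of these passed after adjustment over all genes, with an adjusted p of 0.848 for each in limma.

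Across all genes, both drugs and angiotensin II alone were not separated. In the fit of 24 libraries, 0 of 15818 genes had an adjusted p under 0.05 (0%) and the smallest adjusted p was 0.16, while 695 genes had an unadjusted p under 0.05 (4.39%), 425 higher with both drugs (2.69%) and 270 lower (1.71%). Angiotensin II replicate 6 held 2.77% mitochondrial reads, against 5.70% or more in the other hemisphere libraries, and without it 0 genes passed and 552 had an unadjusted p under 0.05. A p that misses the threshold does not show that the groups are alike.

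Of 20 tested interferon response genes, 18 were higher and 2 lower with both drugs, the median log2 difference was 0.10 (0.16 without both-drug replicate 5), and 4 had an unadjusted p under 0.05, all higher, beside 5.19% of all genes. Ifitm3, a membrane protein that restricts viral entry, had 21.1, 24.1 and 26.0 FPKM with both drugs, against 14.0, 18.4 and 19.8 FPKM with vehicle. The groups did not overlap, the log2 difference was 0.43 ± 0.09, and the adjusted p was 0.204 in limma. Isg15, a ubiquitin-like modifier, differed by 0.32 ± 0.13, and Igtp, an interferon-induced GTPase, by 0.27 ± 0.11.

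Of 16 antigen presentation genes, 13 were higher and 3 lower, with a median of 0.11, and 4 had an unadjusted p under 0.05, all higher, beside 5.19% of all genes. Cd74, the invariant chain of MHC class II, had 4.56, 5.79 and 8.19 FPKM with both drugs, against 3.53, 4.68 and 5.67 FPKM with vehicle. Its values overlapped between the groups, with a log2 difference of 0.37 ± 0.15. H2-Eb1, a class II beta chain, differed from vehicle by 0.29 with both drugs and by 0.71 with angiotensin II, each against the same vehicle libraries, and angiotensin II libraries ranged between 3.09 and 13.5 FPKM. Against angiotensin II alone, 14 of the 16 genes were lower with both drugs, with a median of -0.15, or 12 of 16 with a median of -0.02 without angiotensin II replicate 6. Of 11 complement genes, 9 were higher and 2 lower, with a median of 0.14, and 4 had an unadjusted p under 0.05, all higher, beside 5.19% of all genes. These were C1qa, C1qc, Serping1 and C4b, with differences of 0.23, 0.22, 0.23 and 0.17.

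Microglia genes as a list were near 0, with 12 of 21 higher, 9 lower and a median of 0.03. An unadjusted p under 0.05 was found for 4 higher members and 1 lower, beside 5.19% and 3.65% of all genes. C1qa and C1qc belong to this list as well as to the complement list. Aif1, which encodes IBA1, had 3.03, 3.85 and 4.47 FPKM with both drugs, against 2.11, 2.8 and 3.98 FPKM with vehicle, a log2 difference of 0.39 ± 0.12. Cd68, a lysosomal protein of phagocytes, averaged 6.73 ± 1.23 FPKM with both drugs and 5.83 ± 0.922 FPKM with vehicle (SD, n = 6 each).

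Classical inflammatory transcripts were barely detected. Il1b, Ccl2 and Cybb, which encode interleukin 1 beta, a monocyte chemokine and the catalytic subunit of NADPH oxidase 2, were all under the filter, at no more than 0.285 FPKM in any of the 12 libraries. Vcam1, a leukocyte adhesion receptor on endothelium, averaged 2.57 ± 0.165 FPKM with both drugs and 2.49 ± 0.118 FPKM with vehicle (SD, n = 6 each). Markers of blood leukocytes were few: 7 of 24 listed lymphocyte and neutrophil genes passed the filter, 6 of them higher. Their median log2 difference was 0.34, and it ran from 0.03 to 0.56 over the 27 alternative settings. Their summed level was 18.1 to 40.1 FPKM with both drugs and 18.8 to 34.9 FPKM with vehicle. Pglyrp1, a peptidoglycan recognition protein, was the member with the smallest p, at 4.45, 5.48 and 6.19 FPKM with both drugs, against 3.11, 3.22 and 5.22 FPKM with vehicle. Vehicle replicate 1 was the highest vehicle library for Pglyrp1, and without it the log2 difference was 0.64 with an adjusted p of 0.0282 in limma.

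Of 19 reactive astrocyte genes, 14 were higher and 5 lower with a median of 0.05, and 6 had an unadjusted p under 0.05, all higher, beside 5.19% of all genes. Gfap, the intermediate filament of astrocytes, had 70.5, 79.5 and 98.4 FPKM with both drugs, against 61.2, 71.0 and 76.4 FPKM with vehicle. The groups overlapped and the log2 difference was 0.20 ± 0.08. Of 21 meningeal fibroblast genes, 19 were higher and 2 lower with a median of 0.06, or of 0.13 without both-drug replicate 1. Over the 27 alternative settings that median ran from 0.04 to 0.13. Mgp, an inhibitor of vessel calcification made by vascular and meningeal cells, had 21.7, 26.8 and 31.4 FPKM with both drugs, against 14.1, 19.3 and 21.8 FPKM with vehicle. Its groups touched at a single pair of libraries, and its log2 difference was 0.51 ± 0.11, adjusted p = 0.241 in limma.

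**Figure D4:**
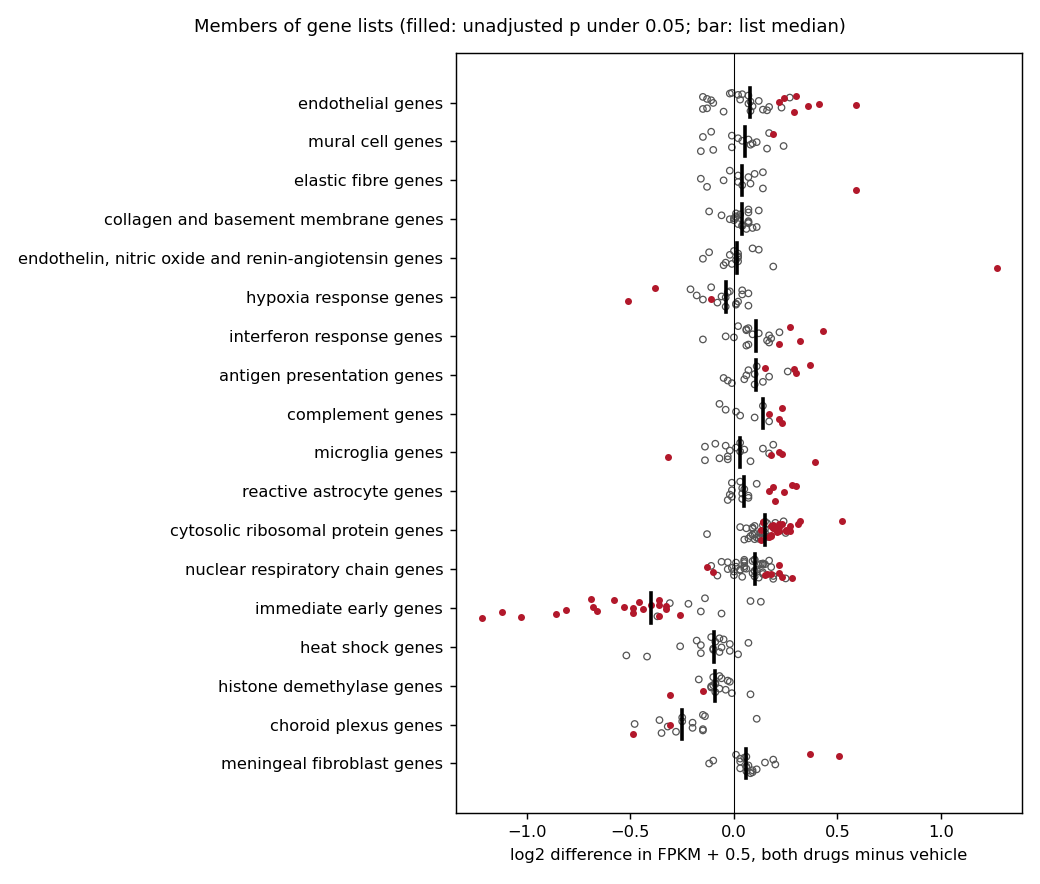
Log2 difference in FPKM + 0.5 between both drugs and vehicle (x axis) for the tested members of 18 gene lists (rows); each point is a gene, filled points have an unadjusted p under 0.05, and black bars are list medians. Immediate early genes have a median of -0.40 and cytosolic ribosomal protein genes one of 0.15.

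Of 51 cytosolic ribosomal protein genes, 50 were higher and 1 lower, with a median log2 difference of 0.15, and 23 had an unadjusted p under 0.05, all higher, beside 5.19% of all genes. No member passed after adjustment. Rps29, a small subunit protein with near-identical genomic copies that make its level uncertain, had 314, 351 and 395 FPKM with both drugs, against 182, 253 and 292 FPKM with vehicle. The groups did not overlap, and the log2 difference was 0.52 ± 0.10, adjusted p = 0.157 in limma. Of 49 nuclear respiratory chain genes, 40 were higher and 9 lower with a median of 0.10. An unadjusted p under 0.05 was found for 7 higher and 2 lower members, beside 5.19% and 3.65% of all genes, and the smallest was that of Ndufa3, a complex I subunit, at 0.28.

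Values of these lists varied with library properties, whose part in the result was not tested. Ribosomal protein list means were 6.54 to 6.81 with both drugs and 6.40 to 6.82 with vehicle on the log2 scale, and vehicle replicate 1 was the highest of all 12. Without it the median difference of the ribosomal protein genes was 0.22. Short genes were also higher with both drugs in general: the fifth of genes with the shortest models had a median of 0.062 and the fifth with the longest one of -0.016. Spearman's correlation of the difference with gene length was -0.19 across 15818 genes, which share the same 12 libraries, and -0.30 without vehicle replicate 1. With the trend on length removed in each library it was -0.02, and the ribosomal protein median was 0.14 and that of the respiratory chain 0.06. Mitochondrially encoded genes had a median of 0, with 7 of 13 higher and 6 lower. mt-Nd4l, a complex I subunit gene that overlaps mt-Nd4 and is therefore uncertain, held 21.5, 23.9 and 33.0 FPKM with both drugs, against 28.7, 42.1 and 52.1 FPKM with vehicle.

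Among other single genes higher with both drugs, Polr2k, a small subunit shared by the RNA polymerases, had the smallest p of all (chromosome 15, 36174010 to 36177010, plus strand). It held 25.3, 29.1 and 30.3 FPKM with both drugs, against 20.4, 22.5 and 24.2 FPKM with vehicle. The groups did not overlap, and the log2 difference was 0.35 ± 0.05, adjusted p = 0.122 in limma. Groups were also apart for Rcc1l, a mitochondrial guanine nucleotide exchange factor-like protein, at 0.35 ± 0.06, for Dctpp1, a dCTP pyrophosphatase, at 0.31 ± 0.07, and for Arrdc1, an arrestin-like protein of extracellular vesicle release, at 0.24 ± 0.05. They overlapped for Lsm7, a component of the U6 small nuclear ribonucleoprotein, at 0.40 ± 0.08, for Uqcc3, a complex III assembly factor, at 0.28 ± 0.06, and for Slc38a5, a glutamine transporter, at 0.47 ± 0.10.

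The lower gene with the smallest p was Prkcd, protein kinase C delta, which is abundant in thalamic neurons (chromosome 14, 30595354 to 30626210, minus strand). It had 5.92, 6.99 and 9.45 FPKM with both drugs, against 9.59, 11.7 and 13.6 FPKM with vehicle. The highest both-drug library lay just under the lowest vehicle library, and the log2 difference was -0.61 ± 0.11, adjusted p = 0.142 in limma. Genes of thalamus and midbrain as a list had 6 of 17 higher and 11 lower, a median of -0.07 and 3 members with an unadjusted p under 0.05, all lower, beside 3.65% of all genes. With the choroid plexus covariate the median was 0.00, and without vehicle replicate 4 it was -0.11. The share of thalamus in each dissected hemisphere is not in the labels, and its part in the Prkcd value was not tested.

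Other named genes had lower values without passing the test. Med26, a subunit of the Mediator complex, differed by -0.31 ± 0.07, Pnrc1, a nuclear receptor coactivator, by -0.26 ± 0.06, and Tnrc18, a chromatin-associated protein, by -0.24 ± 0.05. Of 18 histone demethylase genes, 17 were lower and 1 higher with a median of -0.09, or of -0.14 without vehicle replicate 1. Over the 27 alternative settings that median ran from -0.14 to -0.06. Kdm6b and Kdm5c, 2 of the 18, had an unadjusted p under 0.05, both lower, beside 3.65% of all genes. Tm6sf2, a membrane protein of lipid secretion, had 2.5, 2.66 and 3.09 FPKM with both drugs, against 3.4, 4.01 and 5.89 FPKM with vehicle, without overlap and with a log2 difference of -0.56 ± 0.11. Smaller differences without overlap were seen for the leucine-rich repeat gene Lrrc24 at -0.29, the mitochondrial coenzyme A carrier Slc25a42 at -0.19, the Ras-like gene Rasl11a at -0.39 and the autophagy protein Atg9a at -0.24. Eno1b differed by -0.39, and as a near-identical copy of the enolase gene Eno1 its level is uncertain.

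Of 18 heat shock genes 16 had lower and 2 higher values, with a median of -0.09 and none with an unadjusted p under 0.05. The median was 0.01 with the choroid plexus covariate and -0.05 without vehicle replicate 6. Of 20 circadian clock genes 13 were lower and 7 higher, with a median of -0.06, and 3 had an unadjusted p under 0.05, all lower, beside 3.65% of all genes. These were Bhlhe40, Per1 and Nfil3, at -0.28, -0.46 and -0.26. Fkbp5 and Map3k6, genes induced by glucocorticoids, were higher at 0.19 ± 0.06 and 0.26 ± 0.08. Their groups did not overlap, beside 0.303% of all genes that were higher without overlap. The glucocorticoid response list had 11 of 18 higher and 7 lower, with a median of 0.06. An unadjusted p under 0.05 was found for 3 higher members and 1 lower, beside 5.19% and 3.65% of all genes. The median was -0.00 without both-drug replicate 6 and -0.02 without both libraries that stand apart. Of 7 adrenergic receptor genes, 6 were lower, and Adrb1 held 6.4, 7.88 and 8.92 FPKM with both drugs, against 8.52, 9.74 and 10.2 FPKM with vehicle.

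Of 16 choroid plexus genes 15 were lower and 1 higher with both drugs, with a median of -0.25. Against the same vehicle libraries, 15 of these genes were lower with angiotensin II alone (median -0.23) and 16 with hydralazine alone (median -0.13). Their summed level was 335 to 671 FPKM with both drugs and 547 to 931 FPKM with vehicle, and most of it was Ttr, the transthyretin carrier, at 284, 434 and 589 FPKM with both drugs, against 471, 621 and 820 FPKM with vehicle. With the choroid plexus mean as a covariate 704 genes had an unadjusted p under 0.05 and 0 passed, and the log2 differences of the leading genes over all 27 alternative settings, this one included, ran from 0.49 to 0.71 for Eln, 0.34 to 0.39 for Podxl and 1.07 to 1.5 for Edn1. Ependymal genes had 9 of 11 lower with a median of -0.08. Oligodendrocyte genes had 17 of 22 lower with a median of -0.04, while Mbp, myelin basic protein, averaged 510 ± 41.8 FPKM with both drugs and 509 ± 45.1 FPKM with vehicle (SD, n = 6 each). Of 17 hypothalamic and pituitary genes, 8 were higher and 9 lower. Their list mean by library ran from 1.72 to 2.45 with both drugs and 1.72 to 2.65 with vehicle on the log2 scale. Hcrt, the orexin precursor, had 11.7, 11.9 and 13.8 FPKM with both drugs, against 6.36, 9.18 and 11.6 FPKM with vehicle. Its groups were only just apart, and it was the 1 member without overlap, beside 0.303% of all genes that were higher without overlap.

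Hippocampal libraries of the same groups gave values that the choice of these genes had not used, although the labels do not say whether they came from the same mice. In that region 0 of 14304 genes had an adjusted p under 0.05 in limma (0%) and 501 had an unadjusted one (3.5%). There 3 of the 12 libraries, 1 with both drugs and 2 with vehicle, listed fewer than 16000 genes above 0, and without them 995 genes had an unadjusted p under 0.05 (6.96%) and 0 passed. Of the 15 named genes higher in the hemisphere, 12 were higher in the hippocampus, beside 54.9% of all genes, and 4 of these had an unadjusted p under 0.05, beside 2.3% of all genes. Without the low libraries 14 of 15 were higher, beside 53.3% of all genes, and 4 had an unadjusted p under 0.05, beside 4.48%. Of the 13 named lower genes tested there, 8 were lower, beside 45.1% of all genes, or 10 without the low libraries, beside 46.7%. Of the lower ones 1 had an unadjusted p under 0.05, beside 1.2% of all genes, and without the low libraries 0 had, beside 2.47%.

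Podxl held 4.07, 4.92 and 6.26 FPKM in both-drug hippocampi, against 1.29, 3.61 and 4.86 FPKM in vehicle hippocampi. The groups overlapped, with a log2 difference of 0.66 over all libraries and 0.31 without the low ones. Mgp differed by 0.55 ± 0.21 and Lsm7 by 0.37 ± 0.11 without the low libraries. Vegfa, which is not among these genes, held 3.65, 3.87 and 5.69 FPKM with both drugs, against 4.98, 6.1 and 7.31 FPKM with vehicle, a log2 difference of -0.45, and of -0.52 without the low libraries. Edn1 differed by 0.31 ± 0.52 there and Eln by 0.28 ± 0.35, both within their error, and Tm6sf2, lower in the hemisphere, had a higher estimate of 0.87 ± 0.41. Immediate early genes had a median of -0.10 over all hippocampal libraries, with 20 of 29 lower, beside 45.1% of all genes. Ribosomal protein genes had one of 0.15, with 48 of 51 higher, beside 54.9%. An unadjusted p under 0.05 in limma was found for 2 and 5 members, beside 3.5% of all genes. Without the low libraries the medians were -0.09 and 0.11. The difference between the regions was tested directly for 13825 genes, and 0 had an adjusted p under 0.05 in limma (0%), while 380 had an unadjusted one (2.75%), so no value is shown to differ between the regions.

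**Figure D5:**
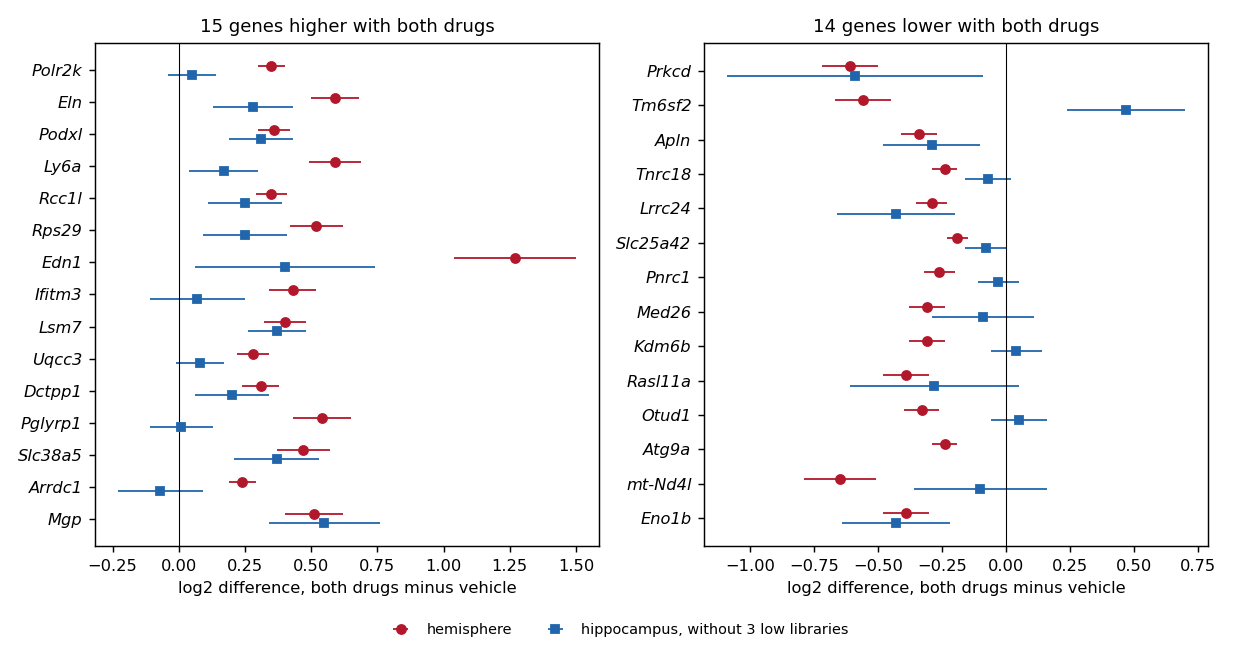
Log2 difference between both drugs and vehicle ± SE (x axes) for the 15 named genes higher (left) and the 14 named genes lower (right) in the hemisphere, with hemisphere values in red and hippocampal values without 3 low libraries in blue; Atg9a was not tested in the hippocampus. In the hippocampus 14 of the 15 higher genes lie above 0 and 10 of the 13 lower genes with a value lie below it.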

How the data were processed

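Total RNA of 48 libraries from 2 brain regions was sequenced, and the authors deposited FPKM per gene with a gene length, as a table of the whole series. The submitters' processing notes name GRCm38, mm10 and DESeq 1.10.1. Which aligner and counter were run, and whether strand was used, is not given in the sources used here; overlapping genes and near-identical copies are therefore uncertain. Because FPKM are normalised, count models were not applied. Deposited FPKM times gene length gave whole multiples of 1 read (tolerance 0.1 read). These served for depth, shares of reads, the agreement of library pairs and the simulated data, but not for the tests between groups. No pair of libraries of a hemisphere group agreed within sampling noise (lowest chi-square per gene 3.08).

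Genes with at least 0.5 FPKM in 6 or more of 12 libraries were tested on log2(FPKM + 0.5) with limma 3.58.1 in R 4.3.3 (mean-variance trend, robust prior), two-sided, at a Benjamini-Hochberg adjusted p under 0.05 over all genes. Comparisons that involve angiotensin II or hydralazine alone used all 24 hemisphere libraries. The fit was tested on simulated data with 200 changed genes. Tables and figures used Python 3.11.15, pandas 2.3.3 and matplotlib 3.10.9.

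The comparison, gene lists and tests were chosen with earlier results of these data known. Genes are named if they are among the 15 smallest p in each direction, protein coding (mean of at least 1 FPKM, no clone names), among the 12 that passed under angiotensin II, among the 4 smallest p of a list, or on a short marker list; exceptions are stated, and 1 lower gene is not reported here. Other pseudocounts, filters, scalings, weights, covariates and left-out libraries were tried. Removal of the length trend, leaving out both libraries that stand apart, and single-library omission in the angiotensin II and hippocampal comparisons were added after seeing the data.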

Additional observations from a re-analysis of the deposited data

Results flagged for a closer look

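In each group of 6 hemisphere libraries, the highest or lowest value was marked where its gap to the nearest other library, as a share of the range of the group, exceeded the 95% critical value of Dixon's test. Chance marks about 1 in 20 groups, and 22 of 178 were marked.

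Both-drug replicate 4 had the lowest Edn1, at 1.45 FPKM against 3.44 to 5.38 FPKM in the other both-drug libraries. It also had the lowest Slc38a5, at 2.48 FPKM, and the lowest mean of endothelin, nitric oxide and renin-angiotensin genes, at 2.71 on the log2 scale. Both-drug replicate 1 had the lowest Pecam1, at 3.78 FPKM, the lowest border macrophage mean, at 0.56, and the most reads in genes, at 23.5 M.

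Vehicle replicate 1 had the highest means of 5 lists: microglia genes at 3.16, myelin genes at 5.18, mitochondrially encoded genes at 9.69, respiratory chain genes at 6.50 and cytosolic ribosomal protein genes at 6.82. It had the lowest histone demethylase mean, at 2.00. It also had the highest Mbp, at 598 FPKM, the lowest Malat1, at 27.6 FPKM, the fewest genes above 0 of the vehicle libraries, at 23693, and the largest share of mitochondrial reads, at 7.22%.

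Vehicle replicate 3 was the lowest vehicle library for Rps29 at 182 FPKM, Dctpp1 at 10.2 FPKM, Junb at 19.6 FPKM and Msantd1 at 0.929 FPKM. Vehicle replicate 6 had the highest lymphocyte and neutrophil mean, at 2.14, and vehicle replicate 2 the highest excitatory neuron mean, at 4.33.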

How the results depend on the processing

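Under the planned and added alternatives, the count of genes that passed for both drugs against vehicle was 13 with library weights (12 higher, 1 lower, smallest adjusted p 0.0243 in limma), 3 in the fit of 24 libraries without angiotensin II replicate 6 (Podxl, Rcc1l and Eln) and 4 without both libraries that stand apart. Leaving out 1 library at a time gave 0 to 10, with 1 without both-drug replicate 1 (Polr2k), 1 without both-drug replicate 4 (Edn1) and 10 without vehicle replicate 1. All other pseudocounts, filters, scalings and covariates gave 0, with a smallest adjusted p of 0.0503 under quantile scaling. Both drugs against angiotensin II and the hippocampus gave 0 throughout. Same-numbered replicates did not pair (correlations of deviations -0.23 to 0.13, and 1 of 6 correlated best with its own number), and the replicate block gave 0 calls in each comparison, with 1173 unadjusted p under 0.05 in the first.

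Of 1350 gene values, 21 changed sign, those of Agt, Mbp and Malat1, whose main values were 0.02, 0.00 and 0.03. Agt was -0.01 with the length trend removed and -0.02 to 0.11 when single libraries were left out. Mbp was -0.00 with median-of-ratios scaling, -0.03 with quantile scaling and -0.03 to 0.05 when single libraries were left out. Malat1 was -0.01 with quantile scaling, -0.07 with library weights, -0.03 with the choroid plexus covariate, -0.11 without both libraries that stand apart and -0.17 to 0.13 when single libraries were left out, lowest without vehicle replicate 1. The heat shock median turned to 0.01 with the choroid plexus covariate, against -0.09. Medians of the main lists ranged between -0.52 and -0.32 for immediate early, 0.06 and 0.14 for endothelial, 0.07 and 0.16 for interferon response and 0.12 and 0.22 for ribosomal protein genes over 27 alternatives. The causes were not tested. Depth limits genes near 0.5 FPKM, where 1 read per kb is up to 0.0601 FPKM.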
